A study of Mus musculus with 11 samples.

Results

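Mammary tumours of MYC mice held 2 sorted macrophage populations, and their messenger RNA is compared here. Tumour-associated macrophages (TAMs) from mice 2, 4 and 6 were set against mammary tissue macrophages (MTMs) from mice 2 and 4, taken by the group given in the labels. These are 5 of the 11 libraries of the study, and all 17475 genes of its expression table were tested. The remaining 6 libraries are TAMs and MTMs of control mice 1, 3 and 5. They entered the estimate of the spread between libraries and are compared directly in the last paragraphs.

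Every mouse was a female on a B6 background that carried PyMT, a viral oncogene that starts mammary tumours. Each was irradiated at 7 weeks of age and reconstituted with 3 M wild-type bone marrow cells. A low protein diet began 2 weeks later and lasted 6 weeks. The MYC mice carried, in addition, S100a8-cre and a Rosa26-LSL-MYC allele, so that MYC was switched on in cells in which the S100a8 promoter had been active. The S100a8 promoter is best known from neutrophils and other myeloid cells. As the donor marrow was wild type, the MYC alleles belonged to the host, and how many host-derived blood cells survived irradiation is not given in the sources used here. Both populations were sorted as living CD45+ cells without SiglecF, Ly6G, B220 and Ly6C. TAMs were F4/80+ and Vcam+, and MTMs were Vcam- and FOLR2+. Both cell types of mouse 2 and of mouse 4 came from the same animal, and MTMs of mouse 6 were not analysed here.

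Tissue-resident macrophages are long-lived phagocytes that clear dead cells and plasma proteins, and in many organs they carry FOLR2, LYVE1 and CD163. Macrophages of a growing tumour are in large part replenished from blood monocytes, and their survival depends on the receptor CSF1R. Macrophages that take up much lipid often switch on a set of lipid and lysosome genes that includes Gpnmb, Fabp5 and Cd63.

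In what follows TAMs and MTMs are those of MYC mice unless control mice are named. All levels are on the deposited log2 scale, where 1 unit is a doubling for all but the lowest values. For each gene, values stand in the order mice 2, 4 and 6 for MYC TAMs and mice 2 and 4 for MYC MTMs. Differences are MYC TAM minus MYC MTM in log2 units ± SE from limma, with n = 3 and n = 2 libraries. The adjusted p is Benjamini-Hochberg over 17475 genes, and a gene is said to pass, rise or fall where it is below 0.05. A p-value sets a difference against the spread between sorted samples within groups, estimated over all 11 libraries. In bulk RNA, fewer cells of a type and less RNA per cell cannot be told apart.

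The 5 libraries differed little in estimated depth, at 32.6 to 43.2 M reads in genes, but they stood apart in other ways. The TAM library of mouse 4 was the shallowest, and only 581 of its genes sat at the value of no read, against 2760 to 3522 in the other MYC libraries. Its weight in a fit that weights libraries by their residual spread was 0.0827, against 0.616 to 2.32 for the other MYC libraries. Genes of the Y chromosome, chosen after their values were seen, went against the label of female mice in the 5 MYC libraries. Ddx3y was at 4.37, 4.74 and 4.50 in TAMs against 2.89 and 3.27 in MTMs, and at no more than 0.07 in each control library. Eif2s3y was at 3.44, 3.94 and 2.77 in TAMs against 2.20 and 1.93 in MTMs, and at no more than 0.07 in each control library. Kdm5d and Uty were likewise present in the 5 MYC libraries, at 0.81 to 2.40. The sex of the marrow donors is not given in the sources used here. Ddx3y was higher in TAMs by 1.46 ± 0.20 (adjusted p = 0.00365) and Eif2s3y by 1.32 ± 0.29 (adjusted p = 0.0367), both without overlap. Kdm5d differed by 0.54 ± 0.19 (adjusted p = 0.176) and Uty by 0.76 ± 0.36 (adjusted p = 0.338). The X-linked partners of Uty and Ddx3y were lower in TAMs, Kdm6a (-1.23 ± 0.19, adjusted p = 0.00668) and Ddx3x (-0.95 ± 0.20, adjusted p = 0.0321). Eif2s3x and Kdm5c, the partners of Eif2s3y and Kdm5d, are not given here. No pattern over X-linked genes is therefore drawn from Kdm6a and Ddx3x. The part of donor and host cells in the results below was not tested. Ddx3y (adjusted p = 0.061), Eif2s3y (0.169), Kdm6a (0.0546) and Ddx3x (0.0832) did not pass without MTM mouse 2, nor did Eif2s3y (0.255), Kdm6a (0.0845) and Ddx3x (0.28) without MTM mouse 4. Eif2s3y (0.0845) and Ddx3x (0.0519) did not pass without TAM mouse 2, nor did Ddx3x (0.0544) without TAM mouse 4, nor without TAM mouse 6 (0.0519). Ddx3x (0.118) did not pass with the mouse as a block.

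The gates were checked on the genes of the sorted proteins. Folr2, the folate receptor of the MTM gate, was at 1.07, 1.44 and 3.62 in TAMs against 8.45 and 8.07 in MTMs, a difference of -6.22 ± 0.62 (74.6-fold lower, adjusted p = 0.001). The groups were far apart, and TAM mouse 6 was the highest of the TAMs. Vcam1, the gene of the TAM gate, was at 0.96, 1.61 and 2.82 in TAMs against 2.32 and 2.31 in MTMs and did not pass, with -0.52 ± 0.60 (adjusted p = 0.693). The groups overlapped, so that the gene of the gate did not separate them. In control mice it was at 8.60, 7.64 and 8.57 in control TAMs against 5.31, 6.86 and 5.25 in control MTMs. Emr1 (Adgre1, which encodes F4/80) was at 7.50, 7.57 and 8.37 in TAMs against 9.89 and 9.88 in MTMs, a difference of -2.07 ± 0.28 (4.19-fold lower, adjusted p = 0.00428). Csf1r, the receptor that macrophages need to survive, was at 7.59, 8.03 and 8.09 in TAMs against 10.03 and 9.92 in MTMs, a difference of -2.08 ± 0.22 (4.21-fold lower, adjusted p = 0.00122). Both genes were lower in every TAM library than in either MTM library. C1qa, a chain of complement C1q (-1.21 ± 0.28, adjusted p = 0.0421), and Itgam, an integrin (-2.02 ± 0.30, adjusted p = 0.0061), also fell. C1qb, another chain of C1q, was at 11.39, 11.09 and 11.40 in TAMs against 11.84 and 11.54 in MTMs and did not pass (-0.40 ± 0.25, adjusted p = 0.513), and Cd68, a lysosomal glycoprotein, was higher in TAMs by 0.86 ± 0.17 (1.81-fold higher, adjusted p = 0.0233). Of 15 macrophage markers 1 rose and 4 fell. S100a8, whose promoter drives the Cre, was at 6.18, 4.52 and 5.07 in TAMs against 3.59 and 3.16 in MTMs and did not pass (1.89 ± 0.64, adjusted p = 0.158). Emr1 (adjusted p = 0.0544), Cd68 (0.208), C1qa (0.315) and Itgam (0.0845) did not pass without MTM mouse 2, nor did Cd68 (0.144) and C1qa (0.165) without MTM mouse 4. Cd68 (0.0542) and C1qa (0.0549) did not pass without TAM mouse 2, nor did C1qa (0.0808) without TAM mouse 4. Cd68 (0.0521) and C1qa (0.0595) did not pass with the mouse as a block.

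**Figure D1:**
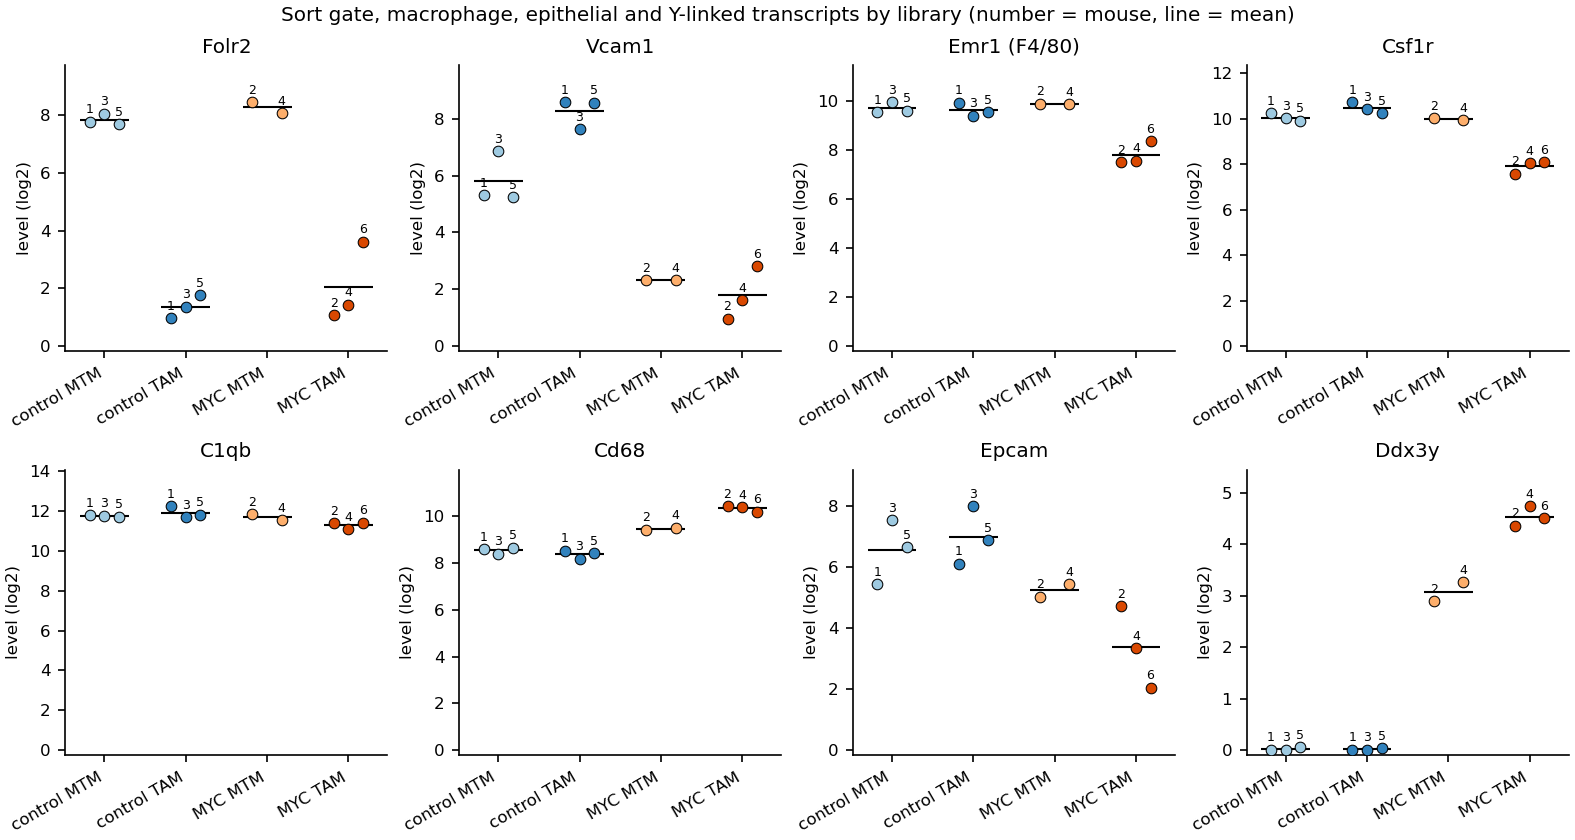
Level (log2, vertical axis) of 8 genes in each of the 11 libraries, grouped on the horizontal axis; each point is a library, its number is the mouse, and lines are group means. Folr2 separates MTMs from TAMs in both genotypes, Csf1r and Emr1 are low in the MYC TAMs, Vcam1 overlaps between the MYC groups, and Ddx3y is at 2.89 or more in each MYC library and at most 0.07 in each control library.

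RNA of other cell types was present and did not move evenly. Over 28 mammary epithelial markers the summed level (on the scale before the logarithm) ran from 87.3 to 517 in MYC TAMs and from 488 to 557 in MYC MTMs. Epcam, an epithelial adhesion protein, was at 4.70, 3.35 and 2.05 in TAMs against 5.02 and 5.43 in MTMs and did not pass (-1.86 ± 0.82, adjusted p = 0.293). Epithelial RNA was thus lowest in TAM mouse 6, and 2 of the 28 markers fell, Cdh1 and Trf, where 3.82% of all genes fell. The sum of 28 T and NK cell markers was 43.7 to 82.1 in TAMs and 16.7 to 47.7 in MTMs, with Ctla4 and Prf1 at no read in all 5 libraries. The sum of 25 dendritic cell markers was 286 to 406 in TAMs and 449 to 532 in MTMs, with Ccr7 at no read. The sum of 26 monocyte markers was 478 to 888 in TAMs and 1307 to 1598 in MTMs. Over 13 endothelial markers the sum was 14.8 to 20.3 in TAMs and 5.84 to 8.21 in MTMs, and 11 of the 13 were below a level of 1 in each library. The part of other cells in the results was not tested.

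Of the 17475 genes 784 passed (4.49%), of which 116 rose in MYC TAMs (0.664% of all genes) and 668 fell (3.82%). These shares are the background for the list counts below. Among the 9375 genes with a mean of at least 1, fitted alone, 946 passed, 139 higher and 807 lower, with a median of -0.20. The share that fell was thus higher among expressed genes than over all genes. None of the 784 had overlapping libraries, though in these small groups 30.4% of all genes had no overlap. The median difference over all genes was -0.01. At 4-fold or more 155 genes fell and 13 rose. With the mouse as a block, 476 genes passed and 83 of them rose. Scaling changed the balance: 29.9% of the calls were rises after quantile normalisation and 35.8% with every library centred at its median, against 14.8% here, and centring moved the median of all genes to 0.15. The lists of lost calls below cover left-out libraries and the block. They cover scaling and the MYC libraries alone only where these are named. Without MTM mouse 2 there were 163 calls and without MTM mouse 4 there were 227, and with the 5 MYC libraries fitted alone 90. Without TAM mouse 4 there were 638. Of the 243 genes past the threshold that the naming rule or the lists bring up, 68 passed without each of the 5 MYC libraries in turn, and 190 did not pass with the 5 MYC libraries alone.

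**Figure D2:**
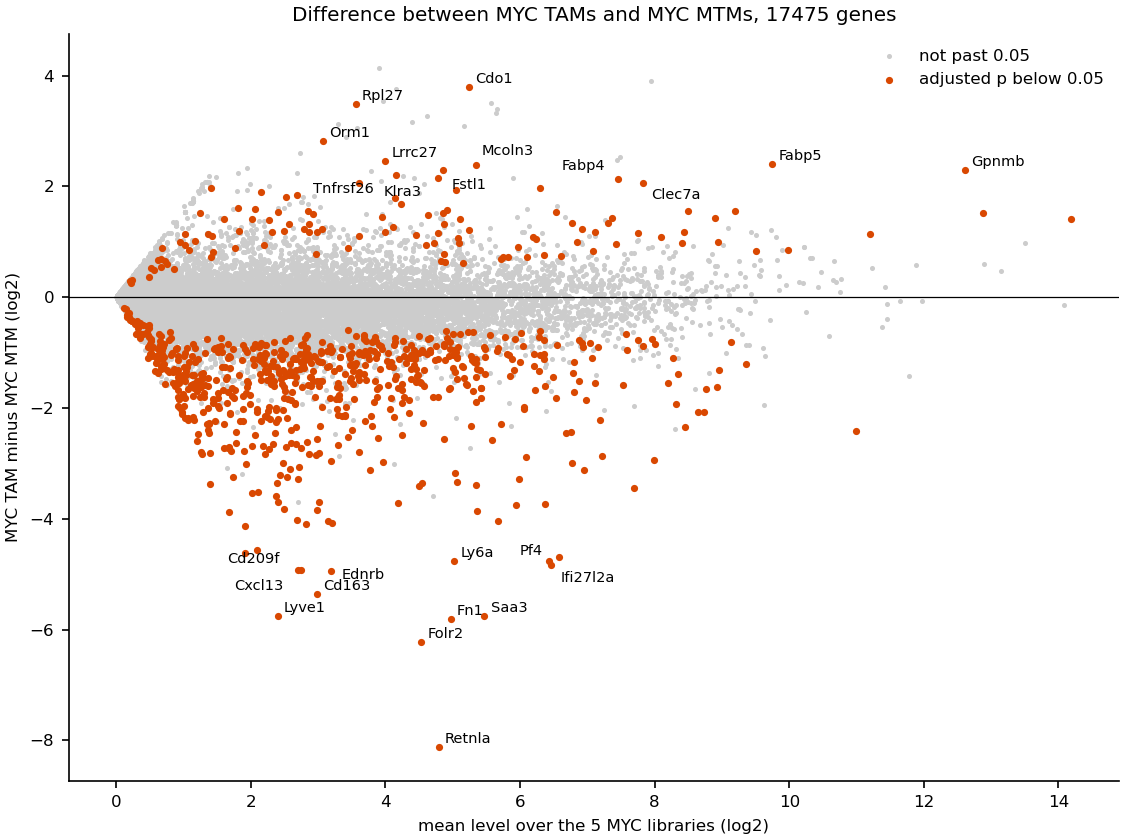
Difference between MYC TAMs and MYC MTMs (log2, vertical axis) against the mean level of the 5 MYC libraries (log2, horizontal axis), with 1 point per gene and coloured points past an adjusted p of 0.05 in limma. The 12 largest falls and the 12 largest rises among genes that passed are named; the falls reach -8.12 (Retnla) and the rises 3.79 (Cdo1).

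The deepest falls included genes of resident and alternatively activated macrophages. Retnla (GRCm38, chromosome 16, 48842551 to 48844461, plus strand), a secreted product of macrophages exposed to interleukin-4, was at 1.43, 3.11 and 0.09 in TAMs against 8.39 and 10.92 in MTMs, a difference of -8.12 ± 0.85 (278-fold lower, adjusted p = 0.0011). Fn1 (chromosome 1, 71585520 to 71653200, minus strand), which encodes the matrix protein fibronectin, was at 2.65, 2.73 and 2.56 in TAMs against 8.21 and 8.70 in MTMs, a difference of -5.81 ± 0.67 (56-fold lower, adjusted p = 0.00168). Lyve1 (chromosome 7, 110850607 to 110863239, minus strand), a hyaluronan receptor of perivascular macrophages, was at 0.05, 0.11 and 0.13 in TAMs against 6.31 and 5.40 in MTMs, a difference of -5.76 ± 0.44 (54-fold lower, adjusted p = 0.00031). Lyve1 was thus near its no-read value in each TAM library, while Retnla varied widely between the TAMs. Saa3, an acute phase protein, was at 4.28, 2.30 and 2.92 in TAMs against 9.53 and 8.31 in MTMs, a difference of -5.75 ± 0.69 (54-fold lower, adjusted p = 0.00206). Cxcl13, a chemokine that draws B cells, was at 1.49, 0.54 and 0.31 in TAMs against 6.04 and 5.35 in MTMs, a difference of -4.92 ± 0.55 (30.2-fold lower, adjusted p = 0.00154). Each of these 5 genes passed without each MYC library in turn and with the mouse as a block. With the MYC libraries alone, Retnla (0.077) and Saa3 (0.0662) did not pass.

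The list of 30 tissue-resident macrophage genes held 22 that fell and none that rose, with a median of -2.87 against -0.01 over all genes. Folr2, the gene of the MTM gate, is among the 22. Because MTMs were sorted by this resident marker, the count is not independent of the sort. Cd163, the haemoglobin scavenger receptor, was at 0.70, 0.26 and 1.56 in TAMs against 6.61 and 5.80 in MTMs (-5.37 ± 0.57, 41.2-fold lower, adjusted p = 0.00121). Vsig4, a receptor for complement fragments, was at 0.28, 0.11 and 0.42 in TAMs against 5.42 and 4.25 in MTMs (-4.57 ± 0.39, 23.7-fold lower, adjusted p = 0.000539). Cd209f and Cd209d belong to the family of C-type lectins related to DC-SIGN. Cd209f was at 0.97, 0.91 and 0.31 in TAMs against 5.55 and 5.75 in MTMs (-4.92 ± 0.30, 30.2-fold lower, adjusted p = 0.000188). Cd209d had no read in the 3 TAM libraries and was at 4.38 and 4.98 in MTMs, which makes it -4.62 ± 0.34 (at least 22.3-fold lower at 3 reads per library, adjusted p = 0.000254). Timd4, a receptor for phosphatidylserine on dying cells, was at 0.02, 0.34 and 0.02 in TAMs against 1.96 and 2.23 in MTMs (-1.97 ± 0.22, 3.9-fold lower, adjusted p = 0.00157). F13a1, a chain of coagulation factor XIII, was at 4.49, 4.94 and 4.66 in TAMs against 9.79 and 8.99 in MTMs (-4.69 ± 0.39, 25.8-fold lower, adjusted p = 0.000487). Members that did not pass had smaller differences: Maf, Gas6, Slc40a1 and Colec12 lay between -0.81 and -0.32. The mean level over the list was 2.68, 2.61 and 3.18 in TAMs and 5.92 and 5.78 in MTMs. The same list also had 22 members lower in TAMs of the control mice, but these were not all the same genes. Stab1 fell in MYC mice (-3.35 ± 0.32) and did not pass in control mice (-0.265 ± 0.283, adjusted p = 0.9175). F13a1 fell in both, with -7.58 ± 0.35 in control mice. In limma's test between genotypes, described below, 1 member passed in each direction, Stab1 (adjusted p = 0.0129) and F13a1 (0.0347).

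Alternative activation genes moved in part. Of 21 members 8 fell, among them Clec10a (-3.41 ± 0.33, adjusted p = 0.000884), Mgl2 (-3.36 ± 0.42, adjusted p = 0.0025) and Mrc1 (-2.88 ± 0.37, adjusted p = 0.00313), which are lectins, and Ccl24 (-3.87 ± 0.31, adjusted p = 0.000453), a chemokine for eosinophils. Arg1, which breaks down arginine, was at 4.48, 4.01 and 4.85 in TAMs against 8.36 and 8.03 in MTMs, a difference of -3.75 ± 0.60 (13.4-fold lower, adjusted p = 0.00838). Flt1, a VEGF receptor, was the member that rose, at 0.82, 0.85 and 1.03 in TAMs against 0.19 and 0.25 in MTMs (0.68 ± 0.11, adjusted p = 0.00718). These levels are low. The sum of 13 endothelial markers was also higher in TAMs (14.8 to 20.3 against 5.84 to 8.21), and its part in Flt1 was not tested. Chi3l3, often used with Retnla as a marker of the same state and named here after its values were seen, was at 9.26, 8.14 and 8.08 in TAMs against 5.57 and 6.34 in MTMs, and did not pass (2.54 ± 0.68, adjusted p = 0.0728). Mrc1 (adjusted p = 0.0511), Arg1 (0.0968) and Flt1 (0.0927) did not pass without MTM mouse 2, nor did Arg1 (0.0662) and Flt1 (0.0643) without MTM mouse 4.

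C-type lectin receptors split by gene. Of 16 members 5 fell and 1 rose. Clec4b1, which belongs to a gene cluster with the other Clec4a members, was at 1.58, 1.35 and 1.65 in TAMs against 4.96 and 5.49 in MTMs, a difference of -3.70 ± 0.23 (13-fold lower, adjusted p = 0.000188), and Clec4a3 was lower (-1.72 ± 0.19, adjusted p = 0.00154). Clec7a, which encodes the glucan receptor dectin-1, went the other way, at 8.55, 9.01 and 8.40 in TAMs against 6.34 and 6.83 in MTMs, a difference of 2.07 ± 0.30 (4.2-fold higher, adjusted p = 0.00573). All 3 TAM libraries were above both MTM libraries for Clec7a and below them for Clec4b1. The Clec4, Cd209, Ly6, Ms4a and Klra genes are families of near copies, and how the authors counted reads shared between copies is not given in the sources used here, so single members are uncertain. Clec7a (adjusted p = 0.0803) did not pass without MTM mouse 2.

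Complement genes fell in part. Of 23 complement genes 9 fell and 1 rose, with a median of -0.62. Cfb, factor B of the alternative pathway, was at 3.85, 4.30 and 4.00 in TAMs against 8.07 and 8.11 in MTMs, a difference of -4.04 ± 0.34 (16.4-fold lower, adjusted p = 0.000487). C2, its counterpart in the classical pathway, was lower (-2.54 ± 0.29, adjusted p = 0.00161), as was Cfp (-2.94 ± 0.41, adjusted p = 0.00426), which encodes properdin. Cfb was lower in every TAM library than in either MTM library. C3ar1, the receptor for the C3a fragment, did not pass (-0.56 ± 0.36, adjusted p = 0.535). Of 19 coagulation and fibrinolysis genes 3 fell, F13a1, Pros1 (-1.97 ± 0.21, adjusted p = 0.00122), which encodes the anticoagulant protein S, and Serpinb2, which had no read in TAMs and was at 0.26 and 0.47 in MTMs. Cfp (adjusted p = 0.0525) and Serpinb2 (0.0808) did not pass without MTM mouse 2, nor did Serpinb2 (0.367) without MTM mouse 4. Serpinb2 (0.107) did not pass without TAM mouse 2, nor without TAM mouse 4 (0.0998), nor without TAM mouse 6 (0.0782). Serpinb2 (0.127) did not pass with the mouse as a block.

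**Figure D3:**
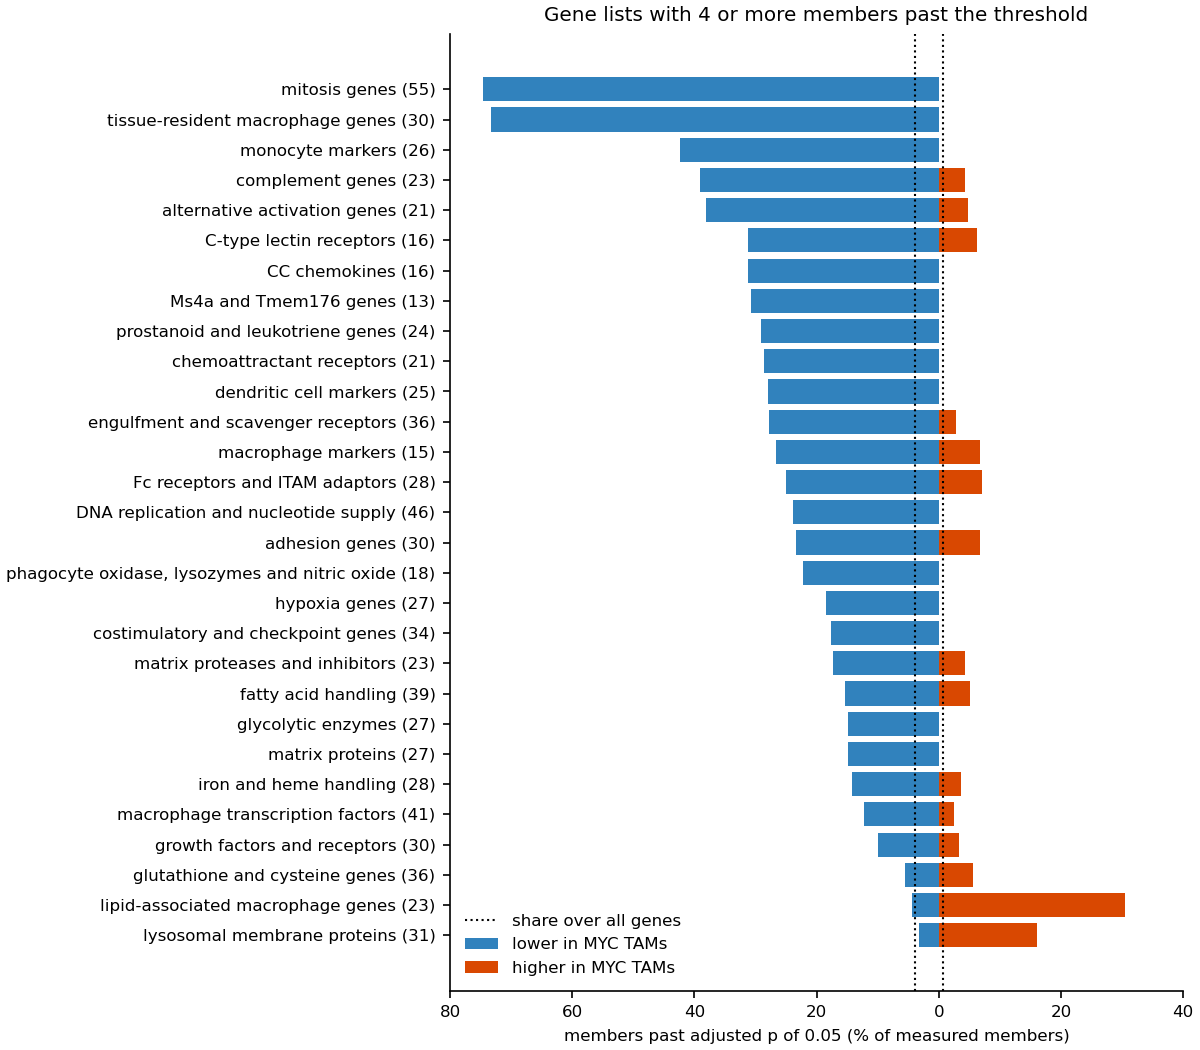
Share of the measured members of each gene list that passed (horizontal axis, % of members, lower to the left and higher to the right) for lists with 4 or more calls; the number of members is in brackets and dotted lines mark the shares over all genes, 3.82% lower and 0.664% higher. Mitosis and tissue-resident genes stand out on the lower side, the latter a list that includes Folr2 of the MTM gate. Lipid-associated macrophage and lysosomal membrane genes, lists that share Gpnmb and Cd63, stand out on the higher side.

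Matrix genes fell in a few members. Of 27 matrix proteins 4 fell, and of 23 matrix proteases and inhibitors 4 fell and 1 rose, where 2 fell and 0 rose with the mouse as a block and 1 fell without TAM mouse 4. Col14a1, a collagen that coats fibrils, was at 1.29, 1.42 and 1.46 in TAMs against 4.79 and 4.56 in MTMs, a difference of -3.29 ± 0.21 (9.74-fold lower, adjusted p = 0.000188). Tgfbi, a matrix protein induced by TGF-beta, was at 8.17, 7.36 and 6.99 in TAMs against 9.91 and 9.79 in MTMs, a difference of -2.34 ± 0.31 (5.06-fold lower, adjusted p = 0.00325). Both groups of libraries were tight for Col14a1. Spp1, which encodes osteopontin, did not pass, at 8.03, 8.24 and 8.71 in TAMs against 7.53 and 7.31 in MTMs (0.91 ± 0.44, adjusted p = 0.348). Mmp8, a collagenase, rose by 1.40 ± 0.24 (adjusted p = 0.0108) and Mmp9, a gelatinase, was lower (-1.57 ± 0.31, adjusted p = 0.0212). The sum of 15 fibroblast and mural markers was 5.60 to 15.1 in TAMs and 17.3 to 25.4 in MTMs, and its part in the matrix genes was not tested. Mmp8 (adjusted p = 0.111) and Mmp9 (0.184) did not pass without MTM mouse 2. Mmp9 (0.055) did not pass without TAM mouse 2, nor without TAM mouse 4 (0.0672). Mmp8 (0.0551) and Mmp9 (0.0785) did not pass with the mouse as a block.

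Chemokines and their receptors were lower in TAMs where they passed. Of 16 CC chemokines 5 fell, of 14 CXC chemokines 3 fell, and of 21 chemoattractant receptors 6 fell, while none of these 51 genes rose. Without TAM mouse 4 the CC chemokines that fell were 2. Pf4, platelet factor 4, was at 4.40, 3.71 and 5.47 in TAMs against 9.60 and 8.98 in MTMs, a difference of -4.76 ± 0.48 (27.1-fold lower, adjusted p = 0.001). Ccl9 was at 3.50, 2.00 and 2.60 in TAMs against 6.48 and 6.34 in MTMs, a difference of -3.71 ± 0.43 (13.1-fold lower, adjusted p = 0.00185). Ccl8, a chemokine that draws several leukocytes, was at 5.71, 5.18 and 8.08 in TAMs against 9.69 and 9.83 in MTMs, a difference of -3.44 ± 0.70 (10.8-fold lower, adjusted p = 0.0255). For Ccl8 the TAM library of mouse 6 lay well above the other TAMs. Ccl2 (-2.27 ± 0.52, adjusted p = 0.0401) and Ccl7 (-3.28 ± 0.62, adjusted p = 0.0182), both ligands of CCR2, were lower. Ccl4 did not pass (-0.11 ± 0.54, adjusted p = 0.943), nor did Cxcl16 (0.24 ± 0.35, adjusted p = 0.765). Ccl8 (adjusted p = 0.171), Ccl2 (0.289) and Ccl7 (0.186) did not pass without MTM mouse 2, nor did Ccl8 (0.169), Ccl2 (0.165) and Ccl7 (0.0845) without MTM mouse 4. Ccl8 (0.0732), Ccl2 (0.0594) and Ccl7 (0.0518) did not pass without TAM mouse 2, nor did Ccl8 (0.0747), Ccl2 (0.117) and Ccl7 (0.0672) without TAM mouse 4.

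Many genes of blood monocytes were lower in the TAM libraries. Ccr2, the receptor by which monocytes leave the marrow, was at 0.05, 0.08 and 0.01 in TAMs against 3.24 and 3.57 in MTMs, a difference of -3.36 ± 0.38 (10.3-fold lower, adjusted p = 0.00161). Cx3cr1, the fractalkine receptor, was at 0.36, 0.41 and 0.95 in TAMs against 3.30 and 3.29 in MTMs, a difference of -2.72 ± 0.25 (6.59-fold lower, adjusted p = 0.000707). S100a4 was at 1.16, 0.87 and 0.81 in TAMs against 4.65 and 4.41 in MTMs, a difference of -3.58 ± 0.30 (12-fold lower, adjusted p = 0.000487). Of 26 monocyte markers 11 fell and none rose, with a median of -1.25. Ly6a was at 3.39, 2.34 and 3.63 in TAMs against 7.84 and 7.92 in MTMs, a difference of -4.77 ± 0.48 (27.2-fold lower, adjusted p = 0.001), and Ifitm6 was lower (-3.83 ± 0.46, adjusted p = 0.00205). Ly6c2, one of the genes of the Ly6C gate, was low in all 5 libraries, at 0.07, 0.20 and 0.07 in TAMs against 1.29 and 0.96 in MTMs (-1.01 ± 0.17, adjusted p = 0.01). The other genes named here passed without each MYC library in turn. Ly6c2 (adjusted p = 0.117) did not pass without MTM mouse 2. Ly6c2 (0.0721) did not pass with the mouse as a block.

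Genes for making leukotrienes and prostanoids were lower where they passed. Of 24 members 7 fell and none rose. Alox5, the enzyme that begins leukotriene synthesis, was at 0.42, 1.00 and 1.35 in TAMs against 4.78 and 4.45 in MTMs, a difference of -3.69 ± 0.28 (12.9-fold lower, adjusted p = 0.00031). Alox5ap, its partner protein, was at 8.50, 8.17 and 7.65 in TAMs against 9.99 and 9.55 in MTMs, a difference of -1.67 ± 0.27 (3.17-fold lower, adjusted p = 0.00855). Ltc4s, which makes leukotriene C4, was at 3.16, 2.25 and 2.05 in TAMs against 5.68 and 4.89 in MTMs, a difference of -2.80 ± 0.41 (6.95-fold lower, adjusted p = 0.00573). Enzyme, partner and the next step were each lower in every TAM library. Ptgs1, the constitutive cyclooxygenase, was at 0.60, 1.16 and 1.08 in TAMs against 3.63 and 3.64 in MTMs, a difference of -2.69 ± 0.24 (6.43-fold lower, adjusted p = 0.000633). The leukotriene receptors Cysltr1 (-1.84 ± 0.26, adjusted p = 0.00499) and Ltb4r1 (-2.22 ± 0.41, adjusted p = 0.017) were lower. Alox5ap (adjusted p = 0.117), Ltc4s (0.0803), Cysltr1 (0.0677) and Ltb4r1 (0.0904) did not pass without MTM mouse 2, nor did Ltb4r1 (0.152) without MTM mouse 4. Ltb4r1 (0.0585) did not pass without TAM mouse 4. Ltb4r1 (0.0651) did not pass with the mouse as a block.

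Of 36 cytokine and NF-kB feedback genes 2 fell, Saa3 and Il10, a share near the 3.82% lower over all genes. With the mouse as a block 4 fell and 3 rose. Il10, an anti-inflammatory cytokine, was at 0.28, 0.09 and 0.31 in TAMs against 2.72 and 2.66 in MTMs (-2.46 ± 0.42, adjusted p = 0.0115). Il1b was at 4.90, 3.98 and 4.36 in TAMs against 5.44 and 6.44 in MTMs and did not pass (-1.53 ± 0.60, adjusted p = 0.231). Of 22 genes of the interleukin-1 axis and inflammasome 0 passed in limma, and 5 had an unadjusted p under 0.05, all lower in TAMs. With the block 1 rose and 1 fell. Il10 (adjusted p = 0.109) did not pass without MTM mouse 2, nor without MTM mouse 4 (0.0887).

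Among 41 macrophage transcription factors 5 fell and 1 rose, and with the mouse as a block 1 fell and 1 rose. Mef2a, a MADS-box factor, was at 3.26, 3.63 and 3.33 in TAMs against 4.92 and 4.48 in MTMs (-1.29 ± 0.19, adjusted p = 0.00571) and Mef2c was lower (-1.44 ± 0.23, adjusted p = 0.00834). Sfpi1, the gene of the lineage factor PU.1, did not pass (-0.51 ± 0.15, adjusted p = 0.113). Myc was at 2.16, 1.92 and 1.78 in TAMs against 2.87 and 3.02 in MTMs, a difference of -0.99 ± 0.21 (1.98-fold lower, adjusted p = 0.0302), and so it was lower in each TAM library. The table's Myc entry is the mouse gene, and whether reads of the transgene reach it is not given in the sources used here. Of 13 genes of the Myc and Max network Myc was the only one to pass. Mef2a (adjusted p = 0.0787), Mef2c (0.0991) and Myc (0.168) did not pass without MTM mouse 2, nor did Mef2c (0.0679) and Myc (0.224) without MTM mouse 4. Myc (0.0606) did not pass without TAM mouse 4, nor without TAM mouse 6 (0.0515). Mef2a (0.0543), Mef2c (0.0685) and Myc (0.0967) did not pass with the mouse as a block.

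Most mitosis genes fell in TAMs. Of 55 mitosis genes 41 fell and none rose, with a median of -1.67, and 50 had an unadjusted p under 0.05 in the lower direction. Ccnb2, a cyclin that drives entry into mitosis, was at 2.94, 2.04 and 2.60 in TAMs against 5.66 and 5.63 in MTMs, a difference of -3.12 ± 0.34 (8.68-fold lower, adjusted p = 0.00131). Plk1, a mitotic kinase, was at 1.67, 1.59 and 1.60 in TAMs against 4.10 and 4.43 in MTMs, a difference of -2.65 ± 0.28 (6.27-fold lower, adjusted p = 0.00122). Kif22, a kinesin that moves chromosomes, was at 2.50, 2.40 and 2.71 in TAMs against 4.58 and 4.78 in MTMs, a difference of -2.15 ± 0.20 (4.42-fold lower, adjusted p = 0.000707). In each case all 3 TAM libraries were below both MTM libraries. Top2a, which untangles DNA, was at 1.21, 1.48 and 1.46 in TAMs against 3.64 and 4.02 in MTMs, a difference of -2.45 ± 0.33 (5.46-fold lower, adjusted p = 0.0041). The mean level over the list was 1.44, 1.51 and 1.44 in TAMs and 3.05 and 3.14 in MTMs, against 2.60 to 3.29 in control TAMs and 3.21 to 3.74 in control MTMs. The MYC TAMs were thus the one group below 2.6. The mean level over the 28 mammary epithelial markers was 2.94, 2.05 and 1.32 in TAMs and 2.92 and 3.03 in MTMs. Their median difference was -0.84, and 26 of the 28 had a negative sign. The part of epithelial RNA in the mitosis result was not tested. The count of mitosis genes that fell was 31 without TAM mouse 4, 30 with the block, 19 without TAM mice 4 and 6 together, 11 without MTM mouse 2, 8 without MTM mouse 4 and 8 with the MYC libraries alone. Top2a (adjusted p = 0.0542) did not pass without MTM mouse 4.

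Promoters of mitosis genes often carry CCAAT boxes and a cell cycle homology region (TTTGAA). The first are known as activating elements, and the cell cycle homology region as an element of repression in resting cells. The 250 bases before the start of 3 genes that fell are shown because they hold both motifs; sequences are from RefSeq (GRCm38.p6), 5′ to 3′ on the strand of the gene. Capitals mark CCAAT and TTTGAA on either strand (ATTGG and TTCAAA on the other). All 3 genes lie on the minus strand, at chr9:70421555-70421804 for Ccnb2, chr11:99024190-99024439 for Top2a and chr7:127042421-127042670 for Kif22.
Ccnb2: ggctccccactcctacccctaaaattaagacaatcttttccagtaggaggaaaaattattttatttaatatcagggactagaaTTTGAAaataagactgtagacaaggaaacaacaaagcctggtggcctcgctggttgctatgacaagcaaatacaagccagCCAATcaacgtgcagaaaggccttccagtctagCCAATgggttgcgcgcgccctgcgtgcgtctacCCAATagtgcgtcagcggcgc
Top2a: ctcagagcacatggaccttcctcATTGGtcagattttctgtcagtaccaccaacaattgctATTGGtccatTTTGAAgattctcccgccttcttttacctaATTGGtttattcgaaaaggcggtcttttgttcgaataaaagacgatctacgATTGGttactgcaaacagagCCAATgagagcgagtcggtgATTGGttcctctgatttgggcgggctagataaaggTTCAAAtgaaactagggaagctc
Kif22: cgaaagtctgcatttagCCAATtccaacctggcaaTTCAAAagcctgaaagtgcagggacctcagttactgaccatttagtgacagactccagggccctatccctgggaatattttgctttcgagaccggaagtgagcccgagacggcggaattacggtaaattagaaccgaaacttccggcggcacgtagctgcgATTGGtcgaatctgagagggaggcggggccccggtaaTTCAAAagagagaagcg
Ccnb2 holds 3 matches of CCAAT and Top2a 6. Of the 55 measured mitosis genes 45 had a promoter in the table, and 68.9% of these held CCAAT and 33.3% TTTGAA, against 37.5% and 18.3% of all 27025 genes of the table. Of 38 DNA replication genes with a promoter 65.8% held CCAAT and 13.2% TTTGAA. A match is a stretch of letters in this window and was not tested as a binding site.

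Some genes for DNA replication fell as well. Of 46 members 11 fell and none rose, with a median of -0.62. Rrm2, which makes deoxynucleotides, was at 1.98, 2.06 and 1.43 in TAMs against 4.55 and 4.79 in MTMs, a difference of -2.85 ± 0.28 (7.21-fold lower, adjusted p = 0.000875). The helicase subunits Mcm2 (-1.62 ± 0.23, adjusted p = 0.00571) and Mcm3 (-1.14 ± 0.18, adjusted p = 0.00711) were lower. Ccne1, a cyclin of the entry into S phase, was at 1.00, 1.06 and 1.67 in TAMs against 2.98 and 2.95 in MTMs, a difference of -1.72 ± 0.26 (3.3-fold lower, adjusted p = 0.00635). Of 24 genes of G1 and cell cycle inhibition, beside 3.82% lower over all genes, 2 fell, Cdk6 (-1.31 ± 0.25, adjusted p = 0.0191) and Ccnd1 (-1.90 ± 0.43, adjusted p = 0.0379). Cdk4, the other kinase of that step, did not pass (-0.22 ± 0.38, adjusted p = 0.797). Rrm2 passed without each MYC library in turn. Mcm2 (adjusted p = 0.0615), Mcm3 (0.0878), Ccne1 (0.0756), Cdk6 (0.166) and Ccnd1 (0.289) did not pass without MTM mouse 2, nor did Mcm2 (0.0581), Mcm3 (0.0644), Ccne1 (0.064), Cdk6 (0.127) and Ccnd1 (0.148) without MTM mouse 4. Ccnd1 (0.0729) did not pass without TAM mouse 2, nor without TAM mouse 4 (0.114), nor without TAM mouse 6 (0.0531).

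**Figure D4:**
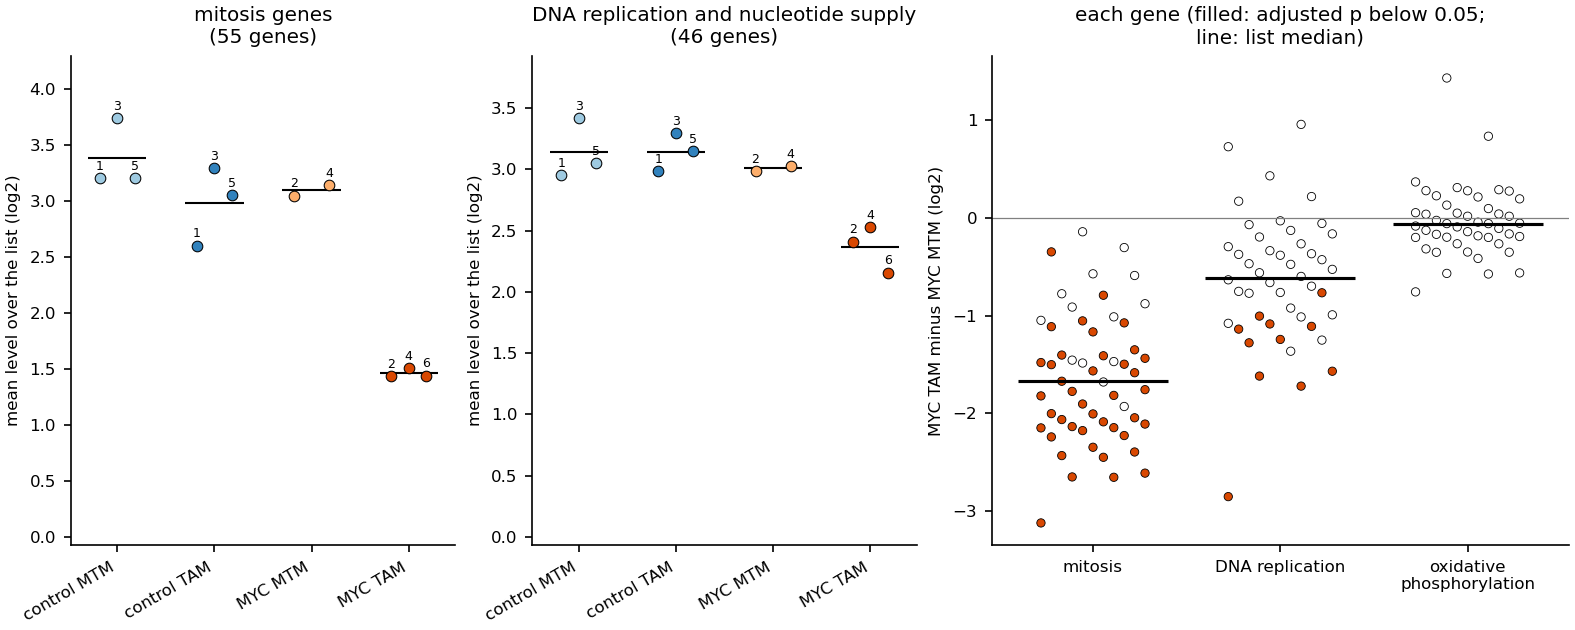
Mean level (log2) over 55 mitosis genes and over 46 DNA replication genes in each of the 11 libraries (left and middle; numbers are mice, lines are group means), and the MYC TAM minus MYC MTM difference (log2) of each gene of these lists and of 47 oxidative phosphorylation genes (right; filled points passed, lines are list medians). The mitosis mean of MYC TAMs is 1.44 to 1.51 and that of every other library is at least 2.60.

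Several genes of lipid-loaded macrophages rose in TAMs. Of 23 lipid-associated macrophage genes 7 rose and 1 fell, with a median of 0.68. Gpnmb (chromosome 6, 49036546 to 49070929, plus strand), a glycoprotein of lysosomes in lipid-laden cells, was at 13.49, 13.24 and 13.86 in TAMs against 10.92 and 11.55 in MTMs, a difference of 2.29 ± 0.45 (4.91-fold higher, adjusted p = 0.0216). Fabp5, a carrier of fatty acids, was at 10.63, 10.20 and 11.29 in TAMs against 7.79 and 8.81 in MTMs, a difference of 2.40 ± 0.51 (5.29-fold higher, adjusted p = 0.0314). Itgax, which encodes CD11c, was at 6.61, 7.11 and 7.56 in TAMs against 4.53 and 5.71 in MTMs, a difference of 1.97 ± 0.34 (3.92-fold higher, adjusted p = 0.0124). Every TAM library was above both MTM libraries for these 3 genes, and MTM mouse 2 was the lowest. Cd63, a tetraspanin of late endosomes, rose by 1.53 ± 0.31 (adjusted p = 0.0239), Lgals3, which encodes galectin-3, by 1.18 ± 0.20 (adjusted p = 0.0114) and Fabp4, another fatty acid carrier, by 2.14 ± 0.48 (adjusted p = 0.0381). Lpl, which releases fatty acids from lipoproteins, was the member that fell, at 0.97, 1.05 and 1.85 in TAMs against 3.69 and 4.86 in MTMs, a difference of -2.98 ± 0.37 (7.91-fold lower, adjusted p = 0.00224). It passed without each MYC library in turn, and the rises did not. Members of the list that rose numbered 4 with the block and 4 without TAM mouse 4. Gpnmb (adjusted p = 0.215), Fabp5 (0.285), Itgax (0.109), Cd63 (0.214), Lgals3 (0.106) and Fabp4 (0.325) did not pass without MTM mouse 2, nor did Gpnmb (0.0845), Fabp5 (0.0806), Cd63 (0.158), Lgals3 (0.0956) and Fabp4 (0.0895) without MTM mouse 4. Gpnmb (0.0542), Fabp5 (0.0719), Cd63 (0.0557) and Fabp4 (0.0983) did not pass without TAM mouse 2, nor did Gpnmb (0.0559), Fabp5 (0.0579) and Cd63 (0.109) without TAM mouse 4, nor did Fabp5 (0.0593) and Fabp4 (0.0734) without TAM mouse 6. Gpnmb (0.051), Fabp5 (0.0816), Cd63 (0.0527) and Fabp4 (0.146) did not pass with the mouse as a block.

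Genes of fatty acid handling mostly fell where they passed, apart from carriers. Of 39 genes of fatty acid handling 6 fell and 2 rose, the rises being Fabp4 and Fabp5, and with the mouse as a block 4 fell and 0 rose. Fads1, a desaturase, was at 3.93, 4.05 and 4.12 in TAMs against 5.11 and 4.97 in MTMs (-1.01 ± 0.15, adjusted p = 0.00679), and Elovl5, an elongase, was lower (-0.87 ± 0.14, adjusted p = 0.00711). Acsl4, which activates arachidonic acid, was at 2.86, 2.83 and 3.38 in TAMs against 4.41 and 4.48 in MTMs (-1.42 ± 0.23, adjusted p = 0.00909). Plin2, the coat protein of lipid droplets, did not pass (0.56 ± 0.39, adjusted p = 0.573). Of 21 genes of cholesterol efflux and LXR 3 fell. Abca9, a transporter, was at 0.89, 2.12 and 1.73 in TAMs against 5.74 and 5.55 in MTMs, a difference of -4.07 ± 0.36 (16.8-fold lower, adjusted p = 0.000628), and Apoe did not pass (0.23 ± 0.30, adjusted p = 0.731). Of 27 genes of cholesterol synthesis and uptake 0 passed in limma, 3 had an unadjusted p under 0.05, and 0 passed with the block. The sum of 8 adipocyte markers was 197 to 465 in TAMs and 55.9 to 100.1 in MTMs. Fabp4 itself was at 8.46, 7.60 and 8.86 in TAMs against 5.69 and 6.63 in MTMs, and 6 of the 8 were below a level of 1 in each MYC library, Adipoq included. Fads1 (adjusted p = 0.0919), Elovl5 (0.1) and Acsl4 (0.0847) did not pass without MTM mouse 2, nor did Fads1 (0.0529), Elovl5 (0.0517) and Acsl4 (0.088) without MTM mouse 4.

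Lysosomal genes gave rises among membrane proteins and few calls among enzymes of the lumen. Of 31 lysosomal membrane proteins 5 rose and 1 fell, with a median of 0.43, and of 24 subunits of the acid pump (V-ATPase) 2 rose. Gpnmb, Cd63 and Cd68, counted in other lists above, are among the 5, so these lists are not separate results. Mcoln3, a lysosomal calcium channel, was at 5.66, 6.54 and 6.69 in TAMs against 3.37 and 4.45 in MTMs, a difference of 2.39 ± 0.49 (5.23-fold higher, adjusted p = 0.0269). Atp6v0d2, a pump subunit also made by osteoclasts, was at 9.60, 9.94 and 9.89 in TAMs against 7.86 and 8.65 in MTMs, a difference of 1.56 ± 0.35 (2.95-fold higher, adjusted p = 0.0391), and Atp6v1c1 was higher by 1.00 ± 0.19 (adjusted p = 0.0182). Tpcn1, another lysosomal channel, went the other way, at 1.88, 1.88 and 2.31 in TAMs against 2.97 and 3.30 in MTMs (-1.11 ± 0.21, adjusted p = 0.0204). Of 22 lysosomal proteases Ctss rose (1.13 ± 0.22, adjusted p = 0.02) and Ctsc fell (-1.86 ± 0.33, adjusted p = 0.0127), while Ctsb (0.48 ± 0.31, adjusted p = 0.534) and Ctsd (0.97 ± 0.41, adjusted p = 0.27) did not pass. Of 38 lysosomal glycosidases, sulfatases and lipases 1 fell and none rose, beside 3.82% lower and 0.664% higher over all genes. The membrane proteins that rose numbered 2 without TAM mouse 4 and 1 with the block. Mcoln3 (adjusted p = 0.264), Atp6v0d2 (0.334), Atp6v1c1 (0.2), Tpcn1 (0.085), Ctss (0.181) and Ctsc (0.131) did not pass without MTM mouse 2, nor did Mcoln3 (0.0635), Atp6v0d2 (0.0801), Atp6v1c1 (0.0845), Tpcn1 (0.195), Ctss (0.146) and Ctsc (0.0855) without MTM mouse 4. Atp6v0d2 (0.0677) and Tpcn1 (0.0555) did not pass without TAM mouse 2, nor did Mcoln3 (0.092), Atp6v0d2 (0.113) and Ctss (0.0578) without TAM mouse 4, nor did Mcoln3 (0.0556) and Atp6v0d2 (0.0688) without TAM mouse 6. Atp6v0d2 (0.0527), Tpcn1 (0.0548) and Ctss (0.0729) did not pass with the mouse as a block.

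Iron genes passed in both directions. Of 28 members 4 fell and 1 rose, and without TAM mouse 4 these were 2 and 0. Fth1, the heavy chain of the iron store ferritin, was at 15.15, 14.76 and 14.33 in TAMs against 13.26 and 13.42 in MTMs, a difference of 1.41 ± 0.33 (2.66-fold higher, adjusted p = 0.0465). Hmox1, which breaks down heme, was at 6.47, 5.89 and 7.12 in TAMs against 8.25 and 7.84 in MTMs, a difference of -1.55 ± 0.34 (2.93-fold lower, adjusted p = 0.0323). Fth1 was highest in TAM mouse 2 and Hmox1 in MTM mouse 2. Fth1 (adjusted p = 0.321) and Hmox1 (0.269) did not pass without MTM mouse 2, nor did Fth1 (0.228) and Hmox1 (0.122) without MTM mouse 4. Fth1 (0.0914) and Hmox1 (0.0785) did not pass without TAM mouse 2, nor did Fth1 (0.193) and Hmox1 (0.0687) without TAM mouse 4. Fth1 (0.0742) did not pass with the mouse as a block.

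Genes that present antigen or regulate T cells fell where they passed. Of 13 MHC class II genes 2 fell, with a median of -1.09. Cd74, the invariant chain, was at 10.52, 10.47 and 9.10 in TAMs against 12.16 and 12.74 in MTMs, a difference of -2.42 ± 0.50 (5.35-fold lower, adjusted p = 0.0268). TAM mouse 6 was lowest and the MTMs highest. H2-DMa, which loads peptide, was lower (-1.43 ± 0.26, adjusted p = 0.0138), and H2-Ab1 did not pass (-1.95 ± 0.51, adjusted p = 0.069). Of 22 MHC class I genes 0 passed in limma, 2 had an unadjusted p under 0.05, and 0 passed with the block. Of 34 costimulatory and checkpoint genes 6 fell (2 without TAM mouse 4), and of 25 dendritic cell markers 7 fell (4 with the mouse as a block). Siglece, an inhibitory receptor for sialic acid, was at 1.56, 1.54 and 1.88 in TAMs against 4.50 and 4.27 in MTMs, a difference of -2.73 ± 0.33 (6.62-fold lower, adjusted p = 0.00219). Pilrb1, an activating receptor of the same broad class, was lower (-2.78 ± 0.34, adjusted p = 0.00219). Of 54 interferon-stimulated genes 3 fell (6 with the mouse as a block), a share near the 3.82% lower over all genes. The first, Ifi27l2a, was at 5.01, 4.07 and 4.47 in TAMs against 9.43 and 9.28 in MTMs, a difference of -4.84 ± 0.44 (28.6-fold lower, adjusted p = 0.000707). Siglece, Pilrb1 and Ifi27l2a passed without each MYC library in turn. Cd74 (adjusted p = 0.131) and H2-DMa (0.0541) did not pass without MTM mouse 2, nor did Cd74 (0.228) and H2-DMa (0.15) without MTM mouse 4. Cd74 (0.0884) did not pass without TAM mouse 4. Cd74 (0.0665) did not pass with the mouse as a block. Pilrb1 (0.0512) did not pass with the MYC libraries alone.

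Receptors for uptake and adhesion mostly fell where they passed. Of 36 engulfment and scavenger receptors 10 fell and 1 rose, of 28 Fc receptors and ITAM adaptors 7 fell and 2 rose, and of 30 adhesion genes 7 fell and 2 rose (4 and 2 with the mouse as a block). Neither of the Fc receptor rises passed without TAM mouse 4. Stab1, which takes up altered proteins, was at 2.83, 2.88 and 3.91 in TAMs against 6.56 and 6.56 in MTMs, a difference of -3.35 ± 0.32 (10.2-fold lower, adjusted p = 0.000806). Fcrls, an Fc receptor-like protein of resident macrophages, was at 4.69, 5.17 and 4.76 in TAMs against 8.42 and 8.80 in MTMs, a difference of -3.73 ± 0.34 (13.3-fold lower, adjusted p = 0.000707). Fcgrt, which spares antibody from breakdown, was at 6.35, 6.20 and 5.65 in TAMs against 9.11 and 8.75 in MTMs, a difference of -2.87 ± 0.33 (7.3-fold lower, adjusted p = 0.00185). The adaptors Tyrobp (0.60 ± 0.30, adjusted p = 0.376) and Fcer1g (-0.07 ± 0.24, adjusted p = 0.918) did not pass. Itgam, which encodes CD11b, was at 5.05, 5.04 and 5.67 in TAMs against 7.45 and 7.10 in MTMs, a difference of -2.02 ± 0.30 (4.06-fold lower, adjusted p = 0.0061), opposite to Itgax. Of 18 genes of the phagocyte oxidase, lysozymes and nitric oxide 4 fell, among them Rac2 (-1.09 ± 0.15, adjusted p = 0.00514), a GTPase of the oxidase. Stab1, Fcrls and Fcgrt passed without each MYC library in turn. Itgam (adjusted p = 0.0845) and Rac2 (0.0615) did not pass without MTM mouse 2, nor did Rac2 (0.0552) without MTM mouse 4.

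Some members of several metabolic lists fell, beside 3.82% lower over all genes and 807 of 9375 among genes with a mean of at least 1. Of 27 glycolytic genes 4 fell (2 with the mouse as a block and 2 without TAM mouse 4), among them Slc2a6 (-2.03 ± 0.31, adjusted p = 0.00667), a sugar transporter, and Pkm (-0.83 ± 0.14, adjusted p = 0.0124), which makes pyruvate, while Gapdh did not pass (-0.56 ± 0.36, adjusted p = 0.522). Of 27 hypoxia genes 5 fell, among them Ero1l at 4.60, 4.61 and 4.76 in TAMs against 5.84 and 5.98 in MTMs (-1.25 ± 0.17, adjusted p = 0.00409). The largest rise of all named genes was in cysteine breakdown. Cdo1, which oxidises cysteine, was at 6.79, 7.00 and 6.49 in TAMs against 2.01 and 3.92 in MTMs, a difference of 3.79 ± 0.54 (13.9-fold higher, adjusted p = 0.00498). Gstp1, a glutathione transferase, was lower, at 7.76, 7.66 and 7.30 in TAMs against 9.05 and 9.21 in MTMs (-1.55 ± 0.17, 2.94-fold lower, adjusted p = 0.00154). Cdo1 and Gstp1 passed without each MYC library in turn. Another glutathione transferase, Gstm1, went the other way and rose by 0.98 ± 0.21 (adjusted p = 0.0297), without overlap. Gstm1 did not pass without TAM mouse 2 (0.0642) or TAM mouse 4 (0.0731). Of 36 glutathione and cysteine genes 2 rose and 2 fell. Of 31 ATF4 targets 3 fell, of 20 aminoacyl-tRNA synthetases 2, and of 45 ribosome biogenesis genes 3, and none of these rose. Without TAM mouse 4 the falls were 2, 0 and 2, and these counts are not read as changes of the lists. Of 80 ribosomal proteins 1 passed, Rpl27 (3.49 ± 0.83, adjusted p = 0.0468), a gene with near copies elsewhere in the genome. Of 47 oxidative phosphorylation genes 0 passed in limma, 3 had an unadjusted p under 0.05, and 0 passed with the block. Pkm (adjusted p = 0.127) and Rpl27 (0.239) did not pass without MTM mouse 2, nor did Slc2a6 (0.0855), Pkm (0.0983), Ero1l (0.0529) and Rpl27 (0.263) without MTM mouse 4. Rpl27 (0.122) did not pass without TAM mouse 2, nor without TAM mouse 4 (0.103), nor without TAM mouse 6 (0.0556). Pkm (0.0614) and Rpl27 (0.0566) did not pass with the mouse as a block.

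Several large rises were single genes outside the pathways above. Lrrc27 (chromosome 7, 139212988 to 139242979, plus strand), a leucine-rich repeat gene, was at 5.17, 4.93 and 4.84 in TAMs against 2.51 and 2.53 in MTMs, a difference of 2.46 ± 0.18 (5.49-fold higher, adjusted p = 0.000236). Klra3 (chromosome 6, 130323289 to 130337574, minus strand), a receptor of the Ly49 family known from NK cells, was at 5.83, 5.82 and 5.27 in TAMs against 3.32 and 3.64 in MTMs, a difference of 2.16 ± 0.26 (4.47-fold higher, adjusted p = 0.00224). Fstl1, a secreted glycoprotein, was at 6.15, 6.04 and 5.14 in TAMs against 3.45 and 3.51 in MTMs, a difference of 2.30 ± 0.32 (4.91-fold higher, adjusted p = 0.00415). The TAM libraries were tight for Lrrc27 and Klra3, and Fstl1 was lowest in TAM mouse 6. S100a1, a calcium-binding protein, was at 9.40, 9.46 and 9.52 in TAMs against 7.94 and 8.12 in MTMs, a difference of 1.44 ± 0.14 (2.7-fold higher, adjusted p = 0.000811), while S100a6 fell (-2.21 ± 0.43, adjusted p = 0.021). Tnfrsf26 rose by 2.21 ± 0.39 (adjusted p = 0.0127) and Orm1, an acute phase protein, by 2.82 ± 0.53 (adjusted p = 0.0183). Lrrc27, Klra3 and S100a1 passed without each MYC library in turn. Fstl1 (adjusted p = 0.0544), S100a6 (0.191), Tnfrsf26 (0.122) and Orm1 (0.131) did not pass without MTM mouse 2, nor did S100a6 (0.113), Tnfrsf26 (0.0932) and Orm1 (0.145) without MTM mouse 4. Tnfrsf26 (0.0537) did not pass without TAM mouse 4. S100a6 (0.0593) and Orm1 (0.0545) did not pass with the mouse as a block.

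The same contrast in control mice gave 414 calls (2.37%). Of these, 131 were also called in MYC mice in the same direction, which is 16.7% of the MYC calls and 31.6% of the control calls, and 125 of the 131 were lower in TAMs. In control mice the differences were -8.37 ± 0.76 (adjusted p = 0.000506) for Retnla, -6.46 ± 0.56 (adjusted p = 0.000421) for Folr2 and -5.67 ± 0.60 (adjusted p = 0.00104) for Fn1. These were within 1 SE of the MYC values, as were those of Cd163, Ednrb and Cxcl13. Other deep falls of MYC TAMs did not match in size. Control differences were smaller for Lyve1 (-3.64), Saa3 (-3.17), Pf4 (-2.36), Ifi27l2a (-1.77) and Ly6a (-0.79), and larger for Cd209f (-6.75). Among these, only Ifi27l2a (adjusted p = 0.0428) and Ly6a (0.0216) passed limma's test between genotypes described below. Of the 116 rises in MYC TAMs 6 were also called as rises in control TAMs.

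Genotype went together with Y-linked RNA, since Ddx3y and Eif2s3y were present in each MYC library and near absent from each control library. A change with genotype and a change with the source of this RNA cannot be told apart here. Whether a difference changed with genotype was tested as the difference of differences, MYC minus control. It passed for 216 genes (1.24%), and 150 of these had also passed in the MYC comparison, 124 lower and 26 higher in MYC TAMs. In 108 of the 150 the control difference had the opposite sign, but it passed in the control comparison in only 13 of these. The 150 were picked for passing both tests, which favours opposite signs. Csf1r was at 10.74, 10.43 and 10.25 in control TAMs against 10.24, 10.01 and 9.91 in control MTMs, so that the low MYC TAM level had no counterpart there, and the difference of differences was -2.50 ± 0.30 (adjusted p = 0.00882). Tmem176a, a channel-like membrane protein of myeloid cells, was at 3.67, 4.47 and 3.32 in TAMs against 7.72 and 7.65 in MTMs, and at 8.89, 7.91 and 8.80 in control TAMs against 7.98, 8.34 and 7.91 in control MTMs. Its difference of differences was -4.33 ± 0.49 (adjusted p = 0.00754). Ptgs1 was at 6.99, 6.39 and 6.47 in control TAMs against 5.57, 5.39 and 5.11 in control MTMs, higher in TAMs, and its difference of differences was -3.95 ± 0.32 (adjusted p = 0.0015). Gpnmb was at 3.32, 3.61 and 4.59 in control TAMs against 7.15, 6.21 and 7.47 in control MTMs, so that it was lower in TAMs of control mice and higher in TAMs of MYC mice (5.40 ± 0.60, adjusted p = 0.00754). Grap, an adaptor of Ras signalling, showed the same turn, at 5.21, 5.30 and 5.18 in TAMs against 3.67 and 3.84 in MTMs and at 0.87, 0.71 and 0.91 in control TAMs against 3.04, 2.84 and 3.05 in control MTMs (3.62 ± 0.20, adjusted p = 0.000224). Of the 55 mitosis genes 5 passed this test in the negative direction and 0 in the positive, and the control comparison called 0 of them in either direction in limma, with a median of -0.41. The number of genes past this test was 31 with the mouse as a block and 129 after centring. Leaving out one library gave 21 without MTM mouse 2, 31 without MTM mouse 4, 66 without control MTM mouse 5, 98 without control MTM mouse 1, and 118, 105 and 105 without control TAM mouse 1, 3 and 5. Gpnmb and Tmem176a were then at an adjusted p of 0.0506 without MTM mouse 2, and Tmem176a at 0.061 with the block.

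**Figure D5:**
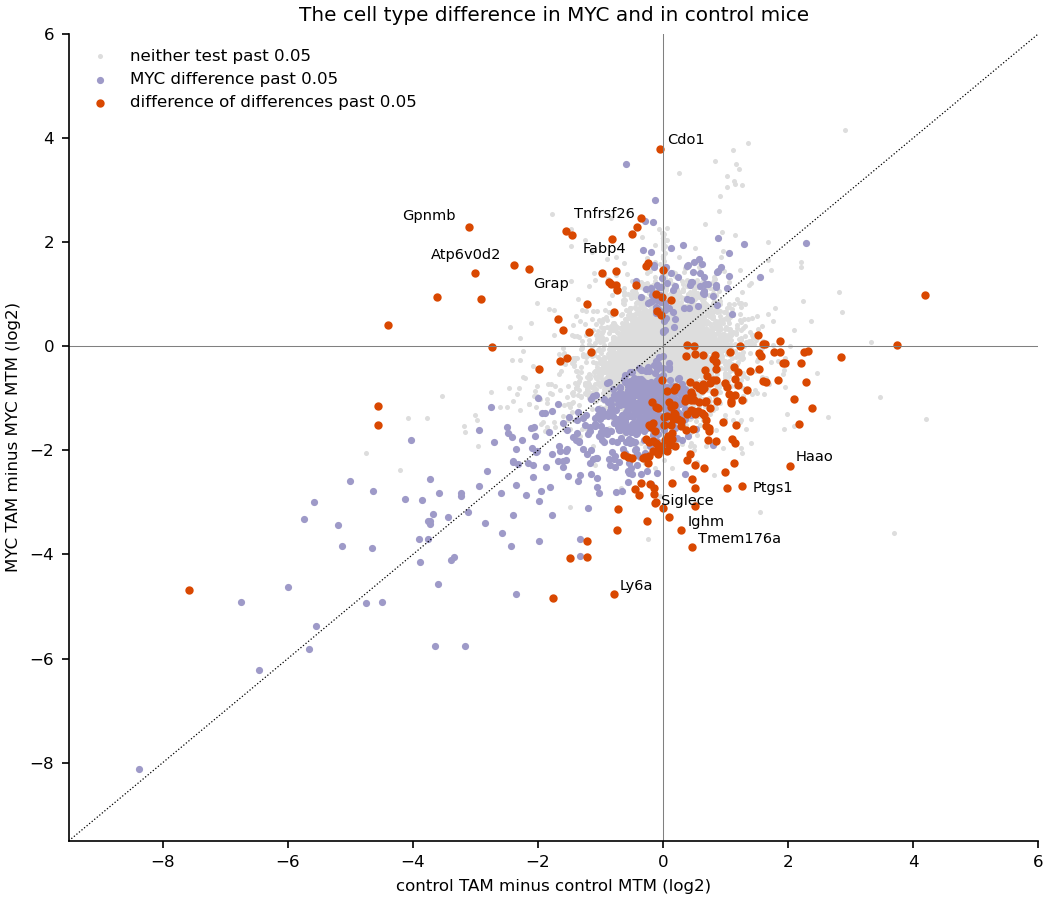
TAM minus MTM difference (log2) in MYC mice (vertical axis) against control mice (horizontal axis), 1 point per gene; the dotted line marks equal differences, and colours mark genes past an adjusted p of 0.05 in the MYC comparison or in the difference of differences. The lowest points, Retnla and Folr2, lie near the line, and the 12 named genes lie far from it, with Gpnmb at -3.11 in control and 2.29 in MYC mice.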

How the data were processed

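RNA was sequenced from macrophages sorted from tumours of individual mice, as stranded poly-A libraries made from 500 ng of RNA with 8 cycles of PCR and RNA integrity numbers of 3.3 to 9.6, per the labels' protocols. The authors deposited 1 table of log2 expression values for 11 libraries. Their processing notes name HISAT2, DESeq2, mm10 and GRCm38.p5, without roles, and the counter, annotation and filters are not given in the sources used here. From the spacing of low values, each log2 value was inferred to be log2(x + 1) of a depth-scaled, length-divided read number, so that fold changes understate those of low genes. Estimated depths (32.6 to 43.2 M reads) come from that spacing, since 93.3% to 96.5% of low values lay within 0.2 of whole steps. The table has 33 entries whose names became dates or numbers and 68 that share a symbol.

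Group means of the 4 groups were fitted to all 11 libraries with limma 3.58.1 (R 4.3.3, empirical Bayes with a mean-variance trend, two-sided). Residual degrees of freedom were 7. P-values were adjusted by the Benjamini-Hochberg method over 17475 genes, with a threshold of 0.05. The script was tested on simulated data. Genes were counted in 67 lists (1738 measured memberships, 78 listed symbols not measured), and a share of calls over all genes is the background. The members, lists and rules were chosen with earlier results of these data known. Named genes are the 12 largest rises and falls that passed without overlap, up to 6 called members of each list with the smallest adjusted p, the 2 of each list with the highest level, the gate genes, Myc and S100a8, and the 6 largest differences between genotypes each way. Bounds for genes without reads assume 3 reads per library. Promoters are the 250 bases before RefSeq starts, searched on both strands. Gene coordinates are from the GRCm38 annotation.

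TAMs and MTMs with the same mouse number came from the same animal, per the labels. Their deviations from the group means correlated at 0.0983 and 0.0379 in MYC mice and at 0.176, 0.211 and 0.0779 in control mice, with 0.127 as limma's random block correlation. The alternatives, 21 in all of which 1 was chosen after seeing the data, were the mouse as a fixed or random block, quantile normalisation, median centring, a minimum mean of 1, a pseudocount of 0.25, no trend, array weights, the 5 MYC libraries alone, and leaving out each library or TAM mice 4 and 6 together.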

Additional observations from a re-analysis of the deposited data

Results flagged for a closer look

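For 12 genes the TAM minus MTM difference differed between MYC and control mice by limma's test of the difference of differences (adjusted p by Benjamini-Hochberg over 17475 genes), and these are the largest in each direction among genes that also passed in MYC mice. The first 6 were more positive in MYC mice. Gpnmb differed by 5.40, Atp6v0d2 by 3.93, Cdo1 by 3.84, Tnfrsf26 by 3.76, Grap by 3.62 and Fabp4 by 3.60 log2 units. Atp6v0d2 was at 1.01, 1.00 and 1.75 in control TAMs against 3.94, 3.03 and 3.92 in control MTMs, and Fabp4 at 0.08, 1.49 and 1.36 in control TAMs against 2.54, 2.48 and 2.27 in control MTMs. The other 6 were more negative in MYC mice. Tmem176a differed by -4.33, Haao by -4.32, Ly6a by -3.98, Ptgs1 by -3.95, Ighm by -3.81 and Siglece by -3.75. Haao, an enzyme of tryptophan breakdown, had 0.08, 0.74 and 0.50 in TAMs against 2.45 and 3.01 in MTMs in MYC mice, and 5.55, 5.58 and 4.81 in control TAMs against 3.57, 3.47 and 2.83 in control MTMs. Ighm, the heavy chain of IgM, had 0.46, 0.90 and 0.46 in TAMs against 3.87 and 4.40 in MTMs in MYC mice, and 5.42, 5.75 and 5.24 in control TAMs against 5.14, 5.41 and 5.01 in control MTMs. Without MTM mouse 2 the adjusted p of this test was 0.0506 for Gpnmb and Tmem176a, 0.057 for Atp6v0d2, 0.127 for Cdo1, 0.0793 for Tnfrsf26, 0.185 for Fabp4, 0.109 for Ly6a and 0.0588 for Siglece. Without MTM mouse 4 it was 0.0757 for Tnfrsf26, 0.0911 for Fabp4 and 0.122 for Ly6a. Cdo1 also lost the call without MYC TAM mouse 2 (0.0764), 4 (0.111) or 6 (0.0502), without control TAM mouse 1 (0.0871), 3 (0.0973) or 5 (0.055) and without control MTM mouse 1 (0.102), 3 (0.0704) or 5 (0.08). Fabp4 lost it without MYC TAM mouse 2 (0.0697), control TAM mouse 3 (0.0535) or 5 (0.0616) and control MTM mouse 1 (0.087), 3 (0.0583) or 5 (0.0924), and Ly6a without control TAM mouse 3 (0.0584) or 5 (0.0572) and control MTM mouse 5 (0.0616). With the mouse as a block Cdo1 (0.115), Tnfrsf26 (0.0578), Fabp4 (0.135) and Tmem176a (0.061) did not pass. A pseudocount of 0.25 ended the calls of Cdo1 (0.0733) and Fabp4 (0.0712), and array weights that of Cdo1 (0.109). Without TAM mice 4 and 6 together Atp6v0d2 (0.0503), Cdo1 (0.133), Tnfrsf26 (0.0542), Fabp4 (0.0758) and Ly6a (0.0688) did not pass. Grap, Haao, Ighm and Ptgs1 passed in all 20 alternatives that gave a value. The groups have 2 or 3 libraries each, too few for a check on single libraries that stand apart. Genotype and the presence of Y-linked RNA cannot be told apart for these genes.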

How the results depend on the processing

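No named gene that passed changed direction under any of the 21 alternatives. The 784 genes that passed between MYC TAMs and MYC MTMs became 476 with the mouse as a fixed block and 90 with the 5 MYC libraries fitted alone. Leaving out 1 library gave 163 (without MTM mouse 2) to 1031 genes (without TAM mouse 6). The 216 genes that differed between genotypes became 31 with the mouse as a fixed block, 325 with it as a random block, 129 after centring, 327 among genes with a mean of at least 1, 380 with array weights and 424 without TAM mice 4 and 6. Leaving out 1 library gave 21 (without MTM mouse 2) to 301 of them (without TAM mouse 6). The 41 mitosis genes that fell became 19 without TAM mice 4 and 6, 8 with the MYC libraries alone, and 8 (without MTM mouse 4) to 42 without 1 library. The 22 resident genes that fell became 14 with the MYC libraries alone and 18 to 23 without 1 library. The cause of these changes was not tested. Where 1 MTM library is left out, the lone one is assumed to vary like the other groups. Of the 243 named genes that passed, 190 lost the call with the MYC libraries alone, 165 without MTM mouse 2, 151 without MTM mouse 4, 76 with the block, 68 after quantile normalisation and 57 after centring. With 2 MTM libraries, a difference that did not pass may still be present.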
